A study of Mus musculus with 56 samples.

Results

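Oxidative phosphorylation is carried out by protein complexes of the inner mitochondrial membrane, most of whose subunits are encoded in the nucleus. The genes described here are the protein-coding genes whose GENCODE symbols begin with Ndufa, Ndufb, Ndufc, Ndufs, Ndufv, Uqcr, Cox4 to Cox8 or Atp5, with Sdha, Sdhb, Sdhc, Sdhd, Cyc1 and Cycs. Assembly factors beginning with Ndufaf were left out, and a mean of at least 1 CPM (counts scaled to library size) in any group was required. Among 58511 gene identifiers counted, 88 matched by symbol and 85 met the level. They are 36 genes of complex I, 4 of complex II, 9 of complex III, 1 for cytochrome c, 18 of complex IV and 17 of complex V. Just inside the level was Cox6a2, which met it only in female controls at 6 weeks, with a mean of 1.893 CPM, and just outside were Cox7b2 and Cox8c, with at most 2 counts in any library.

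RNA of whole adrenal glands from C57BL/6J mice was sequenced in 56 libraries, 14 groups of 4 mice. In one set, female glands were taken at 6, 9 or 12 weeks and male glands at 4, 6 or 9 weeks. At each of these ages, SF1-Cre+;Znrf3 Fx/Fx mice, called cKO, were set against littermates without SF1-Cre. In the other set all mice were male SF1-Cre+;Znrf3 Fx/Fx, were examined at 9 weeks and had undergone castration or a sham operation at week 4, so both groups carried the deletion. Their reporter allele was none, eYFP or mTmG. SF1-Cre is known to be active in the steroid-making cells of the adrenal cortex, and Znrf3 is a brake on Wnt signalling. The genotype and age groups address how an overgrown gland passes into regression, and the surgery groups address the part of the testes.

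Complex I oxidises NADH, and complex II, which is also an enzyme of the tricarboxylic acid cycle, oxidises succinate. Electrons pass from both through ubiquinone to complex III, then by cytochrome c to complex IV, which reduces oxygen, and the ATP synthase (complex V) uses the proton gradient that is built up. Adrenal cortical cells are rich in mitochondria, where the first and last steps of corticosteroid synthesis take place. Binding sequences for NRF1, GABP, YY1 and the estrogen-related receptors in promoters are a known part of the shared control of these genes.

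Promoters were examined for those sequences because most members moved together. RefSeq windows (GRCm38.p6) from 250 bases before to 50 after the transcription start were matched to 67 of the 85 members, and each motif was sought on both strands. The NRF1 core GCGCATGC was in 11 members (16.4%), against 2.8% of 27025 genes. The GABP core CCGGAAG was in 15 (22.4%), against 9.12%. The YY1 core AAGATGGC was in 8 (11.9%), against 2.88%. The estrogen-related receptor core TCAAGGTCA was in Sdhd and Atp5g3 (2.99%), against 0.407%. The E-box CACGTG was in 5 members (7.46%), against 7.24%. A match describes letters, not an occupied site.

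The 250 bases before the start are shown for 5 members that the results turn on, 5′ to 3′ on the coding strand, with motif matches in capitals. Cycs (chr6:50566570-50566819, minus strand) and Sdhb (chr4:140961021-140961270, plus strand) hold the NRF1 core. Sdhd (chr9:50603850-50604099, minus strand) holds the GABP core in this stretch. Atp5g3 (chr2:73911327-73911576, minus strand) holds the estrogen-related receptor core and an E-box. Cox8b (chr7:140900447-140900696, minus strand), a low isoform that went against most members, holds none of the 5 in this stretch. That does not set it apart. Sdha, Atp5b, Cox5a and Ndufa4, which rose in females at 6 weeks, also held none in their windows.
Cycs: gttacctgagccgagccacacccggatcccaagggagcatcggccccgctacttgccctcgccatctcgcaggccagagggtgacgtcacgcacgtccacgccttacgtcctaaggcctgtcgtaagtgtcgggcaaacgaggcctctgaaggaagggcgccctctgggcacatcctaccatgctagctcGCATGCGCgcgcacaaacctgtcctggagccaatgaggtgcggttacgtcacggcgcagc
Sdhb: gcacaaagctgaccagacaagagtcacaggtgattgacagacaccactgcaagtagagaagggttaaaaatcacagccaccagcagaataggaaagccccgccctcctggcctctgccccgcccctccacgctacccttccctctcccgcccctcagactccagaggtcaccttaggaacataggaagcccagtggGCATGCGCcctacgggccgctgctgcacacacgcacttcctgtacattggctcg
Sdhd: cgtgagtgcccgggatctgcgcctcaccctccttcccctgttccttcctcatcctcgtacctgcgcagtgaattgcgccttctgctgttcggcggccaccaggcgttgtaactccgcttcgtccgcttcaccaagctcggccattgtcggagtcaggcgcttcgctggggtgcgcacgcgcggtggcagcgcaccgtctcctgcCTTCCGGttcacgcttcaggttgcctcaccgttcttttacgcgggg
Atp5g3: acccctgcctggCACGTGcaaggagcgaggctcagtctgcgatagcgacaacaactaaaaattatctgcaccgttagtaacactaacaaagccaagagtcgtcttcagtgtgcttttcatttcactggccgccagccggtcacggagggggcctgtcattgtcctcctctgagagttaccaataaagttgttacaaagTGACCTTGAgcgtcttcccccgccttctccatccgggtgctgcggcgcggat
Cox8b: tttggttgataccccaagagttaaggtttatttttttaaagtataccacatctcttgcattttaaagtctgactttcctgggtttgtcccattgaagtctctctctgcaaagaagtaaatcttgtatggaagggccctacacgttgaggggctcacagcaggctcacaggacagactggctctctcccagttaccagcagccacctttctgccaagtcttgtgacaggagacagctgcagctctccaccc

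Libraries held 35694264 to 51604620 counts in females, 12431963 to 35531016 in males and 25145519 to 42411447 in the surgery set. The sets have separate count tables, and values were compared only within a table. Sham replicate 1 stood apart: mitochondrially encoded transcripts held 9.87% of its counts, against 2.41 to 3.11% in the other sham libraries and 3.55 to 4.44% in castrated ones. In males the library numbers of the labels, whose meaning they do not state, were uneven between genotypes. At 4 weeks cKO libraries had numbers 5 to 8 and controls 3, 28, 29 and 30, and at 6 weeks cKO had 13 to 16 and controls 25, 31, 32 and 33. At 9 weeks each genotype had 2 libraries numbered up to 24 and 2 above. The numbers were uneven in the surgery set too, with 13 to 16 in castrated and 10, 12, 29 and 33 in sham libraries. The 8 adrenal cortex markers summed to between 26850 and 78900 CPM in every library, so the labelled tissue was present throughout.

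In control females at 6 weeks the most abundant members per kilobase of exon were Atp5a1 at 354.3 CPM, Cox6a1 at 319.7 and Atp5b at 291.6. Atp5a1 and Atp5b encode the alpha and the catalytic beta subunit of the ATP synthase. The least abundant were complex IV isoforms known from other tissues: Cox4i2, known from lung, at 2.747, Cox6a2, known from heart and muscle, at 2.767, Cox6b2, known from testis, at 3.687, and Cox8b, known from muscle and brown fat, at 5.336. Their general partners were far higher on the same scale, with Cox4i1 at 225.6, Cox6b1 at 226.5 and Cox8a at 244.5. In control males at 4 weeks the leading members were again Cox6a1 at 405.8, Atp5a1 at 345.2 and Atp5b at 307.3.

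In female cKO glands most members were modestly higher than in controls. The median log2 difference over members was 0.24 at 6 weeks, 0.33 at 9 weeks and 0.18 at 12 weeks, against 0.01, -0.02 and -0.01 over all genes tested. By edgeR's quasi-likelihood test at an adjusted p under 0.05, 58 rose and 4 fell at 6 weeks, of 85, where 14.1% of all genes rose and 19% fell. At 9 weeks 73 rose and 4 fell, where 14.6% rose and 19.9% fell. At 12 weeks 28 rose and 3 fell, where 9.04% rose and 15.9% fell. Higher at all 3 ages were 26 members, 30 were higher at 6 and 9 weeks and 16 at 9 weeks alone. In bulk RNA, fewer cells of a type and less RNA per cell cannot be told apart.

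Single libraries moved these counts. At 6 weeks 31 members were higher without cKO replicate 4 and 34 without control replicate 4. At 12 weeks 14 were higher without control replicate 2 and 15 without control replicate 4. The shares of all genes called in these fits are not given.

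**Figure D1:**
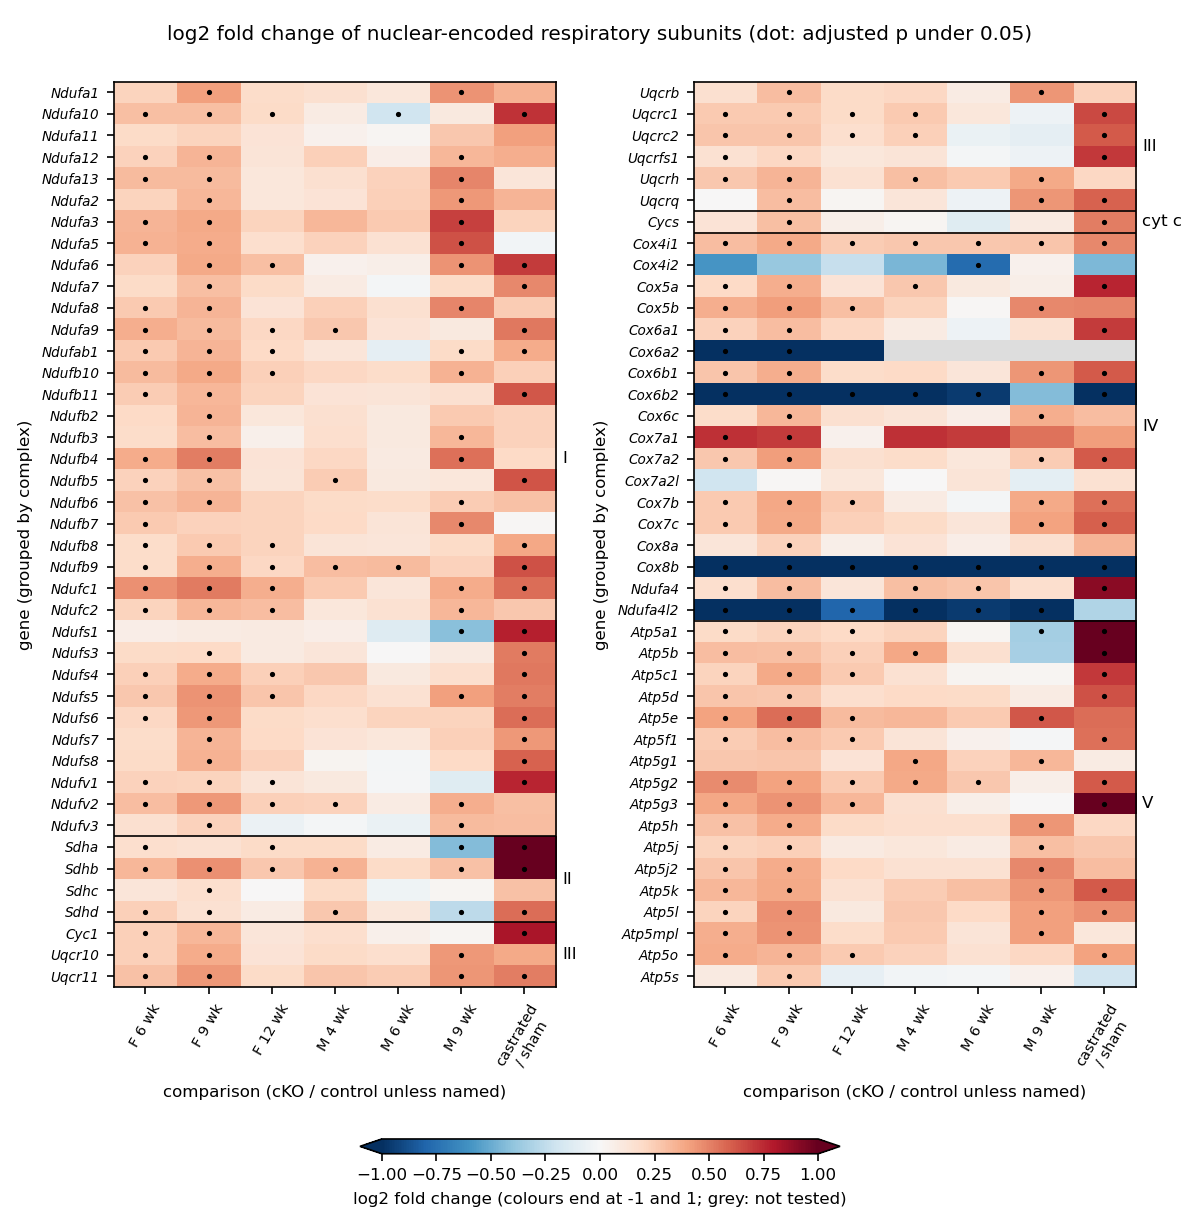
log2 fold change of 84 of the 85 members, ordered by complex, in the 6 cKO against control comparisons and in castrated against sham cKO males, with colour giving the log2 value (ending at -1 and 1, grey where not tested) and a dot marking an adjusted p under 0.05 by edgeR. Most members are on the higher side in females, with 73 called at 9 weeks, and Cox6b2, Cox8b and Ndufa4l2 are on the lower side.

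Of the 36 complex I members 23 rose at 6 weeks, 32 at 9 weeks and 13 at 12 weeks, and 0 fell. Ndufv1, the flavoprotein that takes electrons from NADH, was at 142, 153, 150.9 and 144.3 CPM in controls at 6 weeks and at 173.9, 165.3, 167.9 and 183.4 in cKO. All 4 cKO libraries were above all 4 controls, and the log2 fold change was 0.23 (SE 0.05, adjusted p = 0.000529). Ndufa9, an accessory subunit, rose by 0.36 (SE 0.05, adjusted p = 4.84e-06) at 6 weeks, 0.32 (SE 0.05, adjusted p = 2.3e-05) at 9 weeks and 0.21 (SE 0.05, adjusted p = 0.0027) at 12 weeks. Ndufc1, a small accessory subunit, was at 63.85, 53.5, 59.6 and 68.45 CPM in controls at 9 weeks and at 78.07, 96.76, 99.02 and 78.77 in cKO, with no overlap between the groups. Its log2 fold change was 0.52 (SE 0.12, adjusted p = 0.00169).

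Ndufs1, a core subunit that carries electrons towards ubiquinone, was called at none of the 3 female ages. Ndufs1 was at 198, 181.8, 188.7 and 187.3 CPM in controls at 9 weeks and at 199.6, 179.4, 209.3 and 211.3 in cKO, and the groups overlapped. The log2 difference was 0.08 (SE 0.06, adjusted p = 0.331). The complex IV members Cox4i2 and Cox7a2l, Ndufa11 of complex I and Atp5g1 of complex V were also called at no female age.

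In complex II, 3 of 4 members rose at 6 weeks, 3 at 9 weeks and 2 at 12 weeks. Sdhb, the iron-sulfur subunit, was at 231.8, 233.6, 227.2 and 218.8 CPM in controls at 9 weeks and at 322.5, 318.8, 316.1 and 296.8 in cKO. The groups were well apart, with a log2 fold change of 0.46 (SE 0.06, adjusted p = 4.79e-06). Sdha, the flavoprotein that oxidises succinate, rose by 0.17 (SE 0.07, adjusted p = 0.0467) at 6 weeks and 0.19 (SE 0.07, adjusted p = 0.0344) at 12 weeks, and had a log2 difference of 0.15 (SE 0.07, adjusted p = 0.0711) at 9 weeks.

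In complex III, 7 of 9 members rose at 6 weeks, 9 at 9 weeks and 2 at 12 weeks. Those called at 12 weeks were the core proteins Uqcrc1, with 0.19 (SE 0.05, adjusted p = 0.0129), and Uqcrc2, with 0.17 (SE 0.04, adjusted p = 0.00551). Cyc1, which encodes cytochrome c1, was at 186.2, 187.6, 174.3 and 184.8 CPM in controls at 9 weeks and at 223.9, 231.4, 243.9 and 223 in cKO, without overlap (log2 fold change 0.33, SE 0.06, adjusted p = 0.000213). Uqcrfs1, the Rieske iron-sulfur protein, rose by 0.15 (SE 0.06, adjusted p = 0.041) at 6 weeks and 0.21 (SE 0.06, adjusted p = 0.00635) at 9 weeks. Cycs, the carrier between complexes III and IV, rose at 9 weeks by 0.30 (SE 0.09, adjusted p = 0.0133), and its log2 difference was 0.14 (SE 0.09, adjusted p = 0.245) at 6 weeks and 0.06 (SE 0.09, adjusted p = 0.671) at 12 weeks.

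In complex V, 15 of 17 members rose at 6 weeks, 16 at 9 weeks and 8 at 12 weeks. Atp5b was at 1213, 1243, 1277 and 1209 CPM in controls at 6 weeks and at 1545, 1650, 1536 and 1403 in cKO. Every cKO library was above every control (log2 fold change 0.31, SE 0.06, adjusted p = 0.000284). Atp5a1 rose by 0.19 (SE 0.05, adjusted p = 0.00927) at 6 weeks, 0.22 (SE 0.05, adjusted p = 0.00301) at 9 weeks and 0.20 (SE 0.05, adjusted p = 0.00876) at 12 weeks. Atp5e, the small epsilon subunit, was at 81.41, 87.53, 72.91 and 89.67 CPM in controls at 9 weeks and at 119.8, 132, 122.2 and 114.9 in cKO, again apart (log2 fold change 0.56, SE 0.09, adjusted p = 6.36e-05).

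The ring of c subunits is encoded by 3 genes whose mature proteins are the same. Atp5g2 was at 89.35, 98.04, 93.89 and 86.19 CPM in controls at 6 weeks and at 123, 124.1, 121.9 and 139.3 in cKO, without overlap, and rose by 0.47 (SE 0.06, adjusted p = 7.73e-07). Atp5g3 rose by 0.39 (SE 0.08, adjusted p = 0.000642) at that age, while Atp5g1 had a log2 difference of 0.27 (SE 0.12, adjusted p = 0.0809). How reads shared by such similar genes were assigned was not stated. Atpif1, the ATP synthase inhibitor, which the annotation names outside the symbol rule, rose by 0.40 (SE 0.08, adjusted p = 0.000233) at 6 weeks and 0.44 (SE 0.08, adjusted p = 7.78e-05) at 9 weeks.

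Complex IV was divided: 10 rose and 4 fell of 18 at 6 weeks, 12 rose and 4 fell at 9 weeks and 3 rose and 3 fell at 12 weeks. Cox4i1 was at 326.3, 346.7, 316.2 and 335 CPM in controls at 9 weeks and at 418.9, 462.5, 433.7 and 404.5 in cKO, with the groups apart (log2 fold change 0.38, SE 0.08, adjusted p = 0.000444). Cox5a, which pairs with it in an early step of assembly, rose by 0.36 (SE 0.06, adjusted p = 9.22e-05). Ndufa4, named for complex I but a complex IV subunit, rose by 0.31 (SE 0.06, adjusted p = 0.000139).

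The members that fell were low isoforms. Cox8b was at 1.714, 2.635, 2.318 and 2.433 CPM in female controls at 9 weeks and at 0.5903, 0.5973, 0.1875 and 0.6512 in cKO. It fell on the log2 scale by 1.87 (SE 0.65, adjusted p = 0.0317) at 6 weeks, 2.15 (SE 0.66, adjusted p = 0.0149) at 9 weeks and 2.38 (SE 0.66, adjusted p = 0.0106) at 12 weeks. The cKO libraries replicate 4 at 6 weeks (1.39 CPM) and replicate 2 at 12 weeks (1.552 CPM) were the highest of their groups. They also had 155 and 225 counts of the brown fat gene Ucp1, against at most 9 in the other female cKO libraries. One control at 12 weeks had 62. The sum of the brown fat markers rests mainly on genes other than Ucp1, so it cannot follow Ucp1 and nothing is read from it. In cKO replicates 1 and 2 at 6 weeks, with 0 Ucp1 counts, it was 55.9 and 60.1 CPM. It was 44.71 CPM in replicate 4 at 6 weeks, the lowest of its group. In replicate 2 at 12 weeks it was 64.66 CPM, the highest of its group. Without those cKO libraries the log2 fold change of Cox8b was -3.03 (adjusted p = 0.00168) at 6 weeks and -3.66 (adjusted p = 0.00036) at 12 weeks. As each was the highest of its group, a larger fall follows from leaving it out. The control with 62 Ucp1 counts was kept. The part of brown fat in the Cox8b values was not tested.

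Ndufa4l2, the hypoxia-inducible relative of Ndufa4, was at 15.58, 14.27, 20.56 and 20.06 CPM in controls at 6 weeks and at 7.759, 8.667, 7.99 and 9.048 in cKO. Every cKO library was below every control, and the fall was 1.07 (SE 0.14, adjusted p = 1.36e-06) on the log2 scale. Cox6b2 fell by 1.24 (SE 0.29, adjusted p = 0.00181) at 6 weeks, 1.46 (SE 0.30, adjusted p = 0.000468) at 9 weeks and 1.21 (SE 0.29, adjusted p = 0.00379) at 12 weeks. Cox7a1, a striated muscle isoform, went the other way at 6 weeks, by 0.73 (SE 0.19, adjusted p = 0.00532), and was at 0.49 (adjusted p = 0.039) without cKO replicate 4. That library is the one with 155 Ucp1 counts, and the part of brown fat in the Cox7a1 values was not tested.

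Cox6a2 rested on few counts. At 6 weeks controls had 79, 25, 186 and 33 counts and cKO libraries 1, 0, 2 and 1. No test is given for that age, since those controls are the one group through which Cox6a2 met the level. Cox6a2 is 1 of the 4 members counted as lower at that age. At 9 weeks the counts were 29, 20, 10 and 25 in controls and 6, 5, 7 and 7 in cKO, with a log2 fold change of -1.72 (SE 0.60, adjusted p = 0.0289). At 12 weeks they were 11, 32, 10 and 23 and 6, 14, 4 and 7, with -1.17 (SE 0.59, adjusted p = 0.153).

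**Figure D2:**
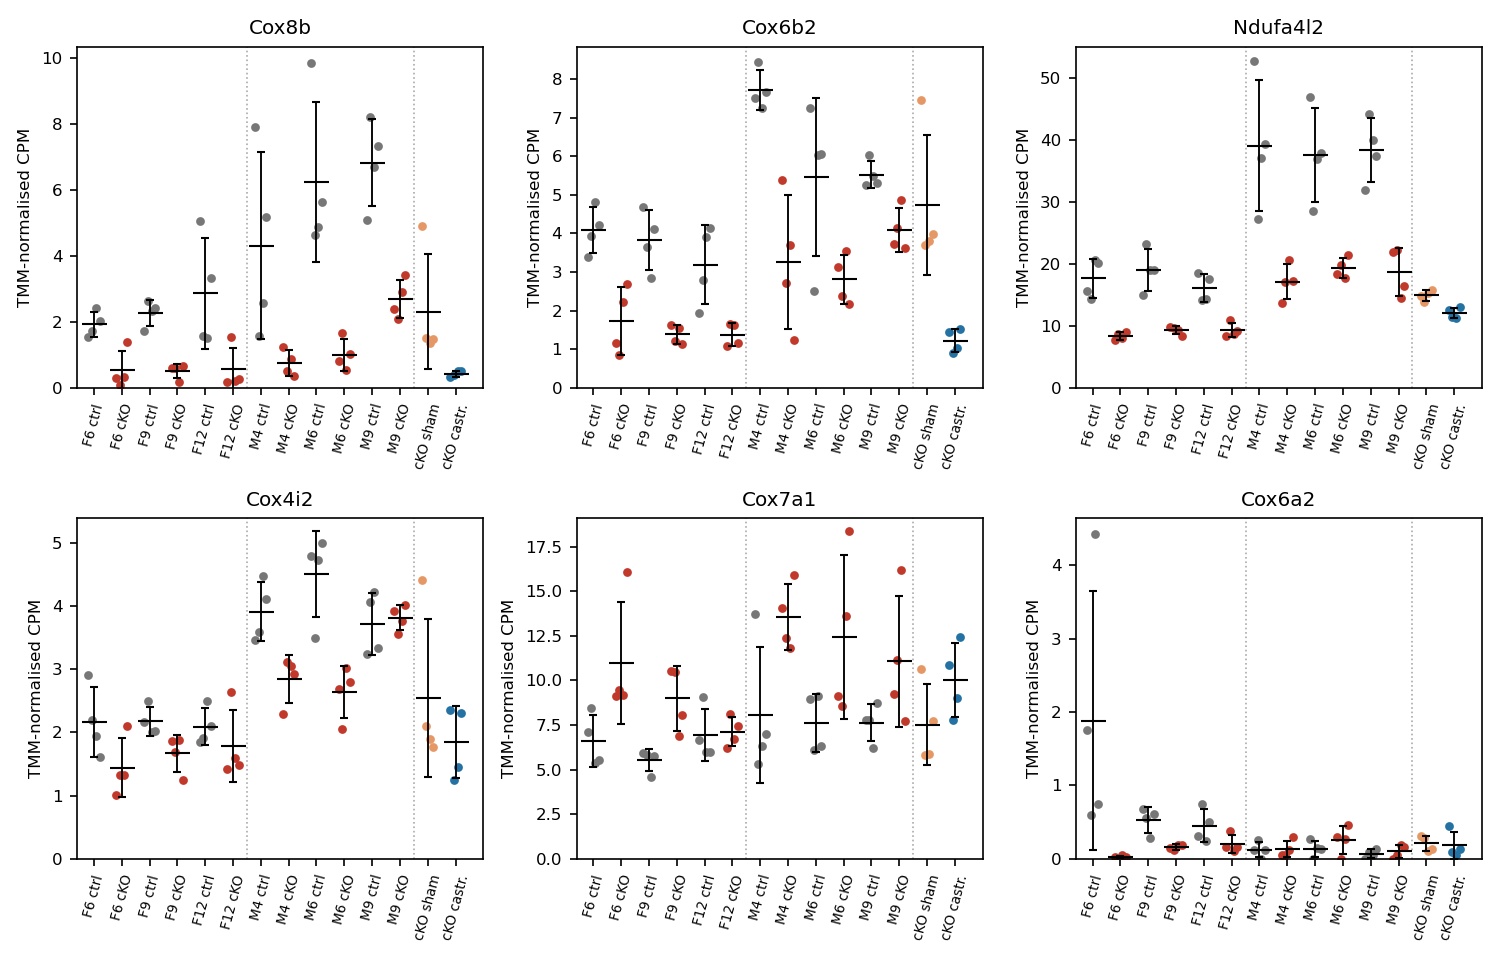
TMM-normalised CPM of Cox8b, Cox6b2, Ndufa4l2, Cox4i2, Cox7a1 and Cox6a2 in every library (points) with group mean and SD (bars, n = 4), on linear axes from 0, with dotted lines between the female, male and surgery tables. Cox8b in females at 9 weeks lies at 1.714 CPM or more in controls and at 0.6512 or less in cKO.

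Other cell types moved with genotype. All 9 chromaffin cell markers fell in each of the 6 cKO against control comparisons, and their sum at 6 weeks in females was 4144 to 5462 CPM in controls and 279.1 to 530.1 in cKO. Of 12 macrophage markers 8 rose at 6 weeks, 9 at 9 weeks and 7 at 12 weeks in females, with sums at 9 weeks of 319.8 to 409 and 551.2 to 1156 CPM. Of 3 markers of the X-zone, an inner cortical layer that is lost at male puberty, 2 fell at each female age. Their sums were 1611 to 3627 CPM in controls and 78.32 to 156.4 in cKO at 6 weeks, 675.9 to 1745 and 226.6 to 544.2 at 9 weeks, and 656 to 2843 and 85.66 to 254.2 at 12 weeks, without overlap at any age. Of 7 endothelial markers 6, 6 and 3 fell in females. In males at 6 weeks their sums went the other way, at 939.4 to 1170 CPM in controls and 1408 to 1637 in cKO. At 4 and 9 weeks in males the groups overlapped. The 8 skeletal muscle markers summed to at most 3.193 CPM in any female library. Of 5 brown fat markers 3 were tested in females and 0 were called, with 1 at an unadjusted p under 0.05 at 6 weeks. The part of these cells in the members' differences was not tested.

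Change with age was small in females. Between 12 and 6 weeks 0 members rose and 0 fell in controls by edgeR, with 1 at an unadjusted p under 0.05 and 1 called by DESeq2, where 0.0697% of all genes were called. In cKO 1 rose and 5 fell, where 5.96% of all genes rose and 3.9% fell. The falls were Ndufa9 (-0.20), Ndufv1 (-0.16), Sdhd (-0.17), Cox7a1 (-0.62) and Atp5g2 (-0.30), and Cox6a2 rose (3.00, SE 0.87, adjusted p = 0.0315). With library totals in place of TMM factors 1 rose and 16 fell, and the shares of all genes in that fit are not given.

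The genotype effect at 12 weeks was also tested against that at 6 weeks. In edgeR it was called for 1 member, against 0.3% of all genes, and 6 had an unadjusted p under 0.05. That member was Cox6a2, for which the contrast contains the 6-week controls that brought it into the family, so nothing is read from the call. The lower count of calls at 12 weeks is thus not shown to be a smaller effect for the rest.

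In males the comparison of cKO with control gave fewer calls at 4 and 6 weeks. At 4 weeks 15 rose and 3 fell of 84 tested, with a median of 0.19, where 6.16% of all genes rose and 12.9% fell. At 6 weeks 4 rose and 5 fell, with a median of 0.10, where 8.12% rose and 11.9% fell. At 9 weeks 40 rose and 6 fell, with a median of 0.24, where 10.3% rose and 13.6% fell. The medians over all genes were 0.01, -0.01 and -0.01.

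These counts changed with a term for library number. With a term for numbers above 24, 0 members rose and 3 fell at 4 weeks, 0 rose and 2 fell at 6 weeks, and 45 rose and 7 fell at 9 weeks. At 4 weeks 1 control and at 6 weeks no control is numbered up to 24, so at these ages the term leans on 1 library and on the other ages. Within the 9-week libraries up to 24, 0 rose and 1 fell, and within those above 24, 44 rose and 5 fell. The shares of all genes called with the term or within these libraries are not given, so the changed counts are not read as particular to the members. At 6 weeks no library pair of both genotypes shares a side of 24, and there number range and genotype cannot be told apart.

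Sdhb at 4 weeks was at 322.1, 239.3, 252.5 and 242.7 CPM in controls and at 329.6, 362.4, 326.6 and 331.2 in cKO, a log2 fold change of 0.35 (SE 0.09, adjusted p = 0.00741). Control replicate 1, the only control numbered up to 24, lay next to the cKO libraries. Without that library 60 members rose and 3 fell, and the shares of all genes called in that fit are not given. The controls left are all numbered above 24 and the cKO libraries up to 24, so number range and genotype cannot be told apart there. With all libraries Cox4i1 (0.27, SE 0.08, adjusted p = 0.0146), Uqcrc1 (0.26, SE 0.08, adjusted p = 0.0286) and Atp5b (0.39, SE 0.13, adjusted p = 0.0352) were also called.

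At 6 weeks Ndufb9 (0.32), Cox4i1 (0.27), Ndufa4 (0.28) and Atp5g2 (0.27) rose, and Ndufa10 (-0.20), Cox4i2 (-0.77), Cox6b2 (-0.96), Cox8b (-2.61) and Ndufa4l2 (-0.96) fell. Cox4i2, the hypoxia-responsive partner of Cox4i1, was at 4.792, 3.5, 4.733 and 4.994 CPM in controls and at 2.687, 2.054, 3.017 and 2.796 in cKO, without overlap (adjusted p = 0.00216). Cox8b was at 9.851, 4.624, 4.876 and 5.651 CPM in controls and at 0.8211, 1.665, 0.5247 and 1.01 in cKO, also apart. It fell at 4 weeks by 2.45 (SE 0.44, adjusted p = 0.000201) and at 9 weeks by 1.34 (SE 0.39, adjusted p = 0.0155). Ndufa4l2 fell by 1.20 (SE 0.18, adjusted p = 3.07e-05) at 4 weeks and 1.03 (SE 0.18, adjusted p = 0.000198) at 9 weeks.

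At 9 weeks the members with the largest called rises in males were small subunits. Ndufa5, an accessory subunit of the matrix arm of complex I, was at 44.17, 53.83, 34.56 and 38.71 CPM in controls and at 49.1, 67.6, 78.92 and 71.07 in cKO. The groups overlapped through cKO replicate 1 and control replicate 2, and the log2 fold change was 0.64 (SE 0.15, adjusted p = 0.00427). Ndufa3 rose by 0.68 (SE 0.13, adjusted p = 0.000439), Ndufb4 by 0.55 (SE 0.12, adjusted p = 0.00225) and Atp5e by 0.62 (SE 0.12, adjusted p = 0.0008). By complex, 19 rose and 1 fell of 36 in complex I, 1 rose and 2 fell of 4 in II, 5 rose and 0 fell of 9 in III, 7 rose and 2 fell of 17 in IV and 8 rose and 1 fell of 17 in V.

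Of the 6 members that fell, 3 are long (a coding sequence of at least 600 bases). They are 13.6% of the 22 long members, against 16.2% of all long coding genes tested, so falls were not more frequent among them. Sdha was at 592.2, 442.1, 480.8 and 494.5 CPM in 9-week controls and at 467.9, 374, 301.9 and 347.8 in cKO. The groups overlapped, cKO replicate 3 was lowest, and the log2 fold change was -0.43 (SE 0.13, adjusted p = 0.0193). Ndufs1 was at 180.3, 121, 149 and 142.4 CPM in controls and at 127.2, 106.2, 100.3 and 109.5 in cKO, again with overlap (log2 fold change -0.42, SE 0.11, adjusted p = 0.00766). Atp5a1 fell by 0.34 (SE 0.11, adjusted p = 0.0262) and Sdhd, a membrane anchor of complex II, by 0.26 (SE 0.09, adjusted p = 0.0411). In the same complex Sdhb rose by 0.29 (SE 0.09, adjusted p = 0.0247). Without cKO replicate 3 the log2 difference was -0.34 (adjusted p = 0.0422) for Ndufs1, -0.31 (adjusted p = 0.109) for Sdha, -0.22 (adjusted p = 0.161) for Atp5a1 and -0.17 (adjusted p = 0.237) for Sdhd. Of the macrophage markers 10 of 12 rose, with sums of 509.8 to 678.3 CPM in controls and 1113, 2448, 1976 and 5707 in cKO. Of the 8 cortex markers 0 rose and 2 fell, with sums of 4.552e+04 to 5.742e+04 CPM in controls and 5.38e+04, 3.72e+04, 3.592e+04 and 3.635e+04 in cKO, where replicate 3 was lowest as for Sdha. The part of these cells in the values was not tested.

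**Figure D3:**
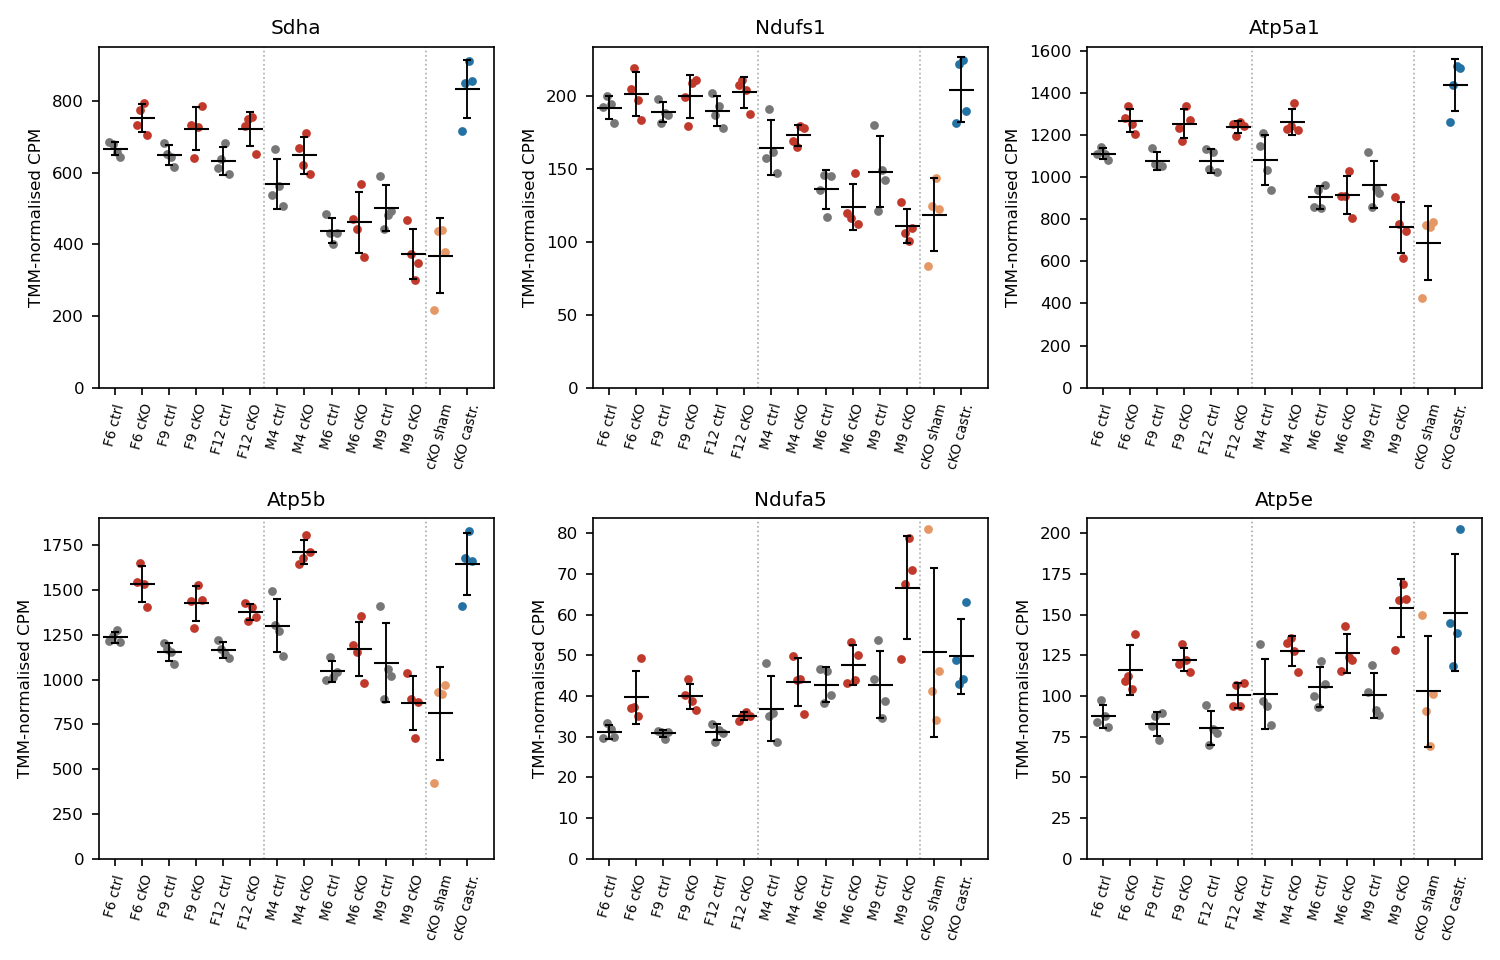
TMM-normalised CPM of Sdha, Ndufs1, Atp5a1, Atp5b, Ndufa5 and Atp5e in every library (points) with group mean and SD (bars, n = 4), on linear axes from 0, with dotted lines between tables. In male cKO glands Atp5b is at 1648 CPM or more at 4 weeks and 1036 or less at 9 weeks, while Ndufa5 at 9 weeks reaches 78.92.

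Male cKO glands at 9 weeks were also set against those at 4 weeks. There 23 rose and 19 fell (27.4% and 22.6%), with a median of 0.11, and 20.6% of all genes rose and 20.9% fell, so the shares called were near those of all genes. By coding length, 18 of 62 short members rose and 6 fell, and 5 of 22 long members rose and 13 fell (59.1%, against 24.9% of long coding genes). Atp5b went from 1648, 1680, 1807 and 1712 CPM to 1036, 894.4, 673.9 and 876.9. Every 9-week library was below every 4-week library, and the fall was 0.98 (SE 0.13, adjusted p = 1.1e-05) on the log2 scale. Sdha fell by 0.80 (SE 0.13, adjusted p = 6.27e-05), Sdhd by 0.73 (SE 0.09, adjusted p = 6.15e-06), Atp5a1 by 0.73 (SE 0.11, adjusted p = 2.67e-05) and Ndufs1 by 0.64 (SE 0.11, adjusted p = 0.000101). Lower in complex III were the core protein Uqcrc1 (-0.39), the Rieske protein Uqcrfs1 (-0.38) and Cyc1 (-0.30). Among those that rose were the small subunits Ndufa5 (0.62), Ndufb4 (0.57) and Ndufa3 (0.50). Without the 9-week cKO replicate 3, 7 rose and 17 fell. Within libraries numbered up to 24, 4 rose and 10 fell. The shares of all genes called in these fits are not given. Of 12 macrophage markers 9 rose, with sums of 314.5 to 815.4 CPM at 4 weeks and 1113 to 5707 at 9 weeks. Of 8 cortex markers 6 fell, with sums of 4.742e+04 to 5.977e+04 CPM at 4 weeks. The part of these cells in the differences was not tested.

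In control males 0 members rose and 0 fell between 9 and 4 weeks by edgeR, and 0 were called by DESeq2, with 6 at an unadjusted p under 0.05 and 3.05% of all genes called. The genotype effect at 9 weeks differed from that at 4 weeks for 3 of 84 members, a share below the 4.89% of all genes. They were Atp5b (-0.73, SE 0.18, adjusted p = 0.0277), Atp5a1 (-0.56, SE 0.15, adjusted p = 0.0379) and Sdhd (-0.53, SE 0.13, adjusted p = 0.0226). In each the genotype effect was lower at the later age. Against controls at 9 weeks Atp5a1 and Sdhd were lower and Atp5b was not called. With the term for library number none of the 3 was called, and without the 9-week cKO replicate 3 Sdhd alone was, at -0.48 (adjusted p = 0.0471).

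Castrated cKO males had higher levels of these genes at 9 weeks than sham-operated cKO males. Of 84 members 46 rose and 2 fell, where 19.7% of all genes rose and 23.8% fell, and the median was 0.48 against -0.01 over all genes. In complex I 18 of 36 rose, in complex II 3 of 4, in complex III 6 of 9 and in complex V 10 of 17, while in complex IV 8 rose and 2 fell of 17. The summed level of members was 9525 to 1.14e+04 CPM in sham and 1.506e+04 to 1.845e+04 in castrated glands. Without sham replicate 1, 69 rose and 2 fell, with a median of 0.53. The shares of all genes called in that fit are not given, so the larger count is not read as particular to the members. With library totals, which moved the median of all genes to -0.21, 30 rose and 4 fell. No term for library number, which was uneven between these groups, was fitted.

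**Figure D4:**
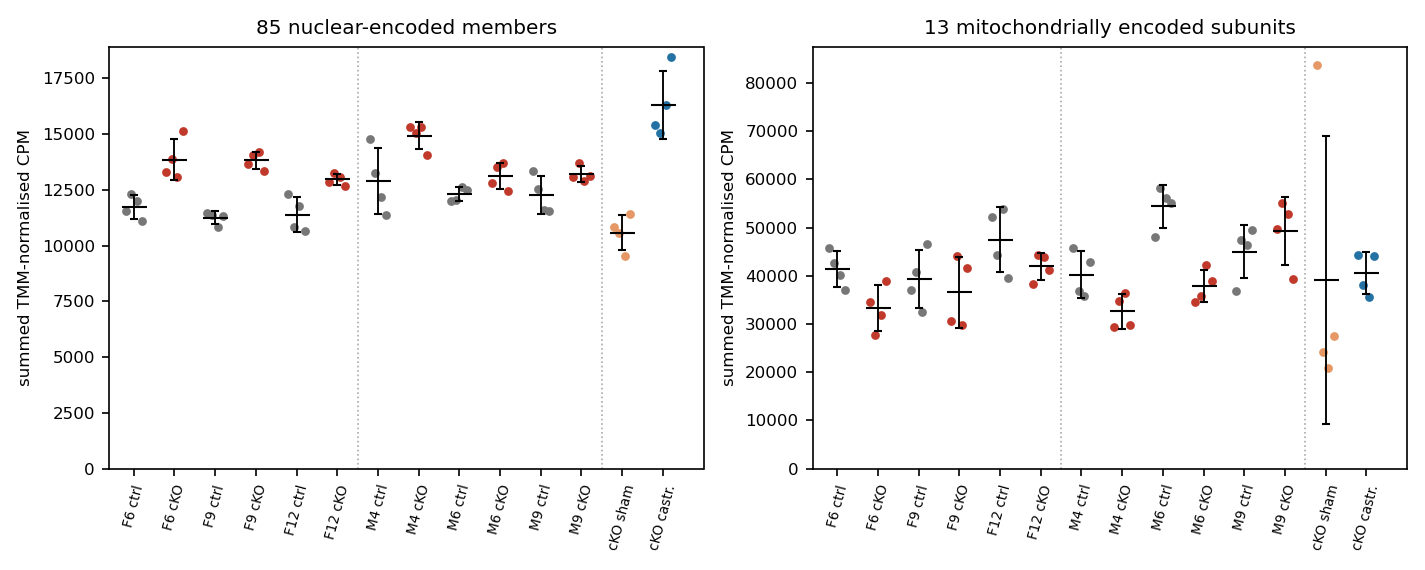
Summed TMM-normalised CPM of the nuclear-encoded members and of the 13 mitochondrially encoded subunits in every library (points) with group mean and SD (bars, n = 4), on linear axes from 0, with dotted lines between tables. For the members castrated glands lie at 1.506e+04 to 1.845e+04 CPM and sham glands at 9525 to 1.14e+04, and for the mitochondrially encoded subunits sham replicate 1 lies at 8.37e+04.

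Complex II and the ATP synthase held the 5 largest rises. Sdha was at 217.9, 436.1, 441.2 and 379.7 CPM in sham and at 717.7, 850, 912 and 855.6 in castrated glands. The groups were far apart, sham replicate 1 was lowest, and the log2 fold change was 1.18 (SE 0.21, adjusted p = 0.00115), or 0.99 without that library. Sdhb went from 203.9, 173.5, 163.8 and 201.3 to 338.7, 350, 390.2 and 423.2 CPM, also apart, with 1.02 (SE 0.12, adjusted p = 0.000104). Atp5a1 rose by 1.06 (SE 0.19, adjusted p = 0.00147) and Atp5b by 1.02 (SE 0.24, adjusted p = 0.00577), or 0.89 and 0.81 without sham replicate 1. Atp5g3, the c subunit gene with the estrogen-related receptor core in its promoter, was at 206.5, 219.1, 197 and 245.7 CPM in sham and at 486.5, 438.2, 466.6 and 548.8 in castrated glands, without overlap (log2 fold change 1.16, SE 0.12, adjusted p = 3.93e-05).

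Smaller rises were called among the other members, and 36 of 84 were not called. Ndufv1 rose by 0.76 (SE 0.11, adjusted p = 0.000324), Ndufs1 by 0.78 (SE 0.16, adjusted p = 0.00275), Uqcrfs1 by 0.71 (SE 0.10, adjusted p = 0.000299), Cyc1 by 0.82 (SE 0.11, adjusted p = 0.000185) and Ndufa4 by 0.90 (SE 0.14, adjusted p = 0.000576). Cycs was at 36.12, 35.54, 39.17 and 39.89 CPM in sham and at 58.04, 51.53, 51.53 and 54.17 in castrated glands, without overlap (log2 fold change 0.51, SE 0.10, adjusted p = 0.00171). The low isoforms fell, Cox8b by 2.39 (SE 0.47, adjusted p = 0.00224) and Cox6b2 by 1.95 (SE 0.30, adjusted p = 0.000493), and were at -1.73 and -1.65 without sham replicate 1. Ndufa4l2 had a log2 difference of -0.30 (SE 0.12, adjusted p = 0.0544).

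Cell type markers also differed between the surgery groups. Of 9 chromaffin markers 9 fell, with sums of 1029 to 2035 CPM in sham and 351 to 779.5 in castrated glands. Of 12 macrophage markers 10 fell, with sums of 1849 to 3578 and 530.3 to 830.3 CPM. Of 8 cortex markers 6 rose and 1 fell, with sums of 2.685e+04 to 3.953e+04 and 6.87e+04 to 7.89e+04 CPM. All 3 X-zone markers rose, with sums of 13.48 to 23.72 and 83.49 to 215 CPM. Of 7 endothelial, 5 erythrocyte and 7 pericyte and smooth muscle markers 6, 5 and 4 fell. The part of these shifts in the members' rise was not tested.

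The male comparisons at 9 weeks (cKO against control, and castrated against sham) share no library. Higher in both were 14 members, 26 were higher in cKO against control alone and 28 in castrated against sham alone. Ndufs1, Sdha, Sdhd and Atp5a1, chosen here after their values were seen, fell in the former and rose in the latter. Across the 84 members, which are not independent replicates, Spearman's rho of the log2 fold changes was -0.33.

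The members' differences were also set against coding length. Members with a coding sequence under 600 bases are mostly accessory subunits, and longer ones are mostly core subunits. In 9-week males 37 of 62 short members rose and 3 fell, with a median of 0.33, and 3 of 22 long members rose and 3 fell, with a median of 0.02. Of all short coding genes 22.7% rose and 9.93% fell, and of all long ones 8.82% rose and 16.2% fell. Spearman's rho with coding length was -0.54 across members and -0.18 across 14537 coding genes. After castration 28 short members rose, with a median of 0.38, and 18 long members rose, with a median of 0.64, where 23.7% of short and 21.1% of long coding genes rose. There rho was 0.34 across members and -0.08 across coding genes. In 9-week females 54 of 63 short and 19 of 22 long members rose. Length and role go together in this family and cannot be told apart here.

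**Figure D5:**
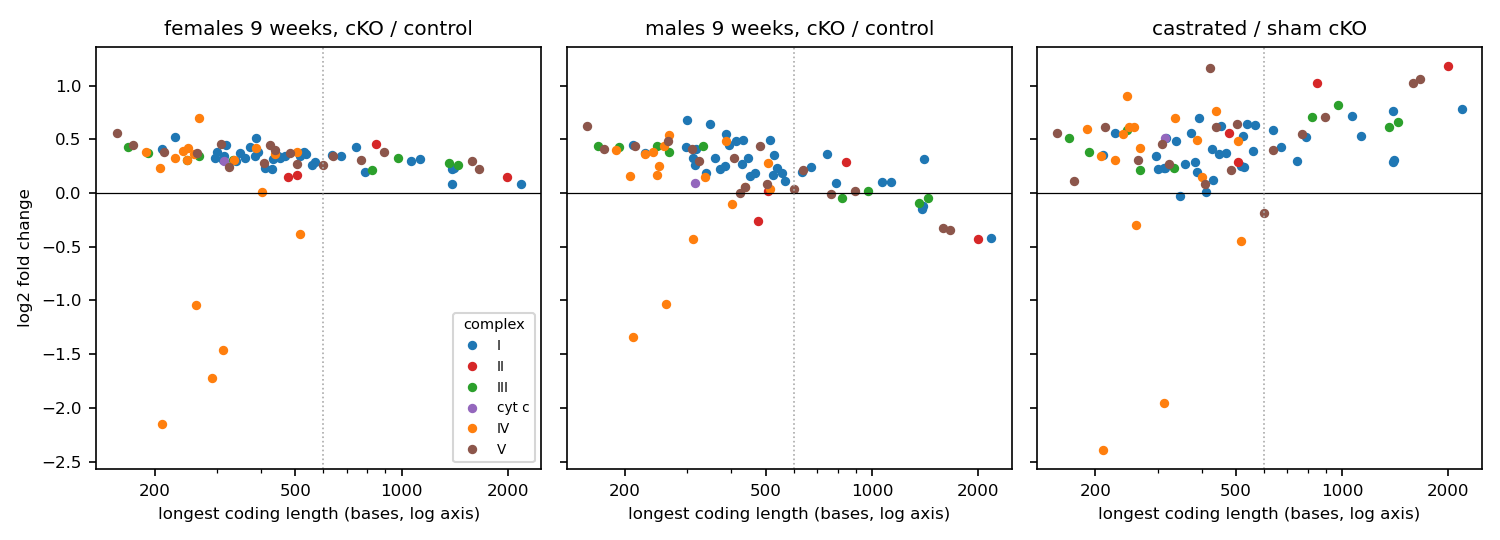
log2 fold change of each member (points) against its coding length in bases (log axis), for cKO against control at 9 weeks in females and males and for castrated against sham cKO males, with colours for the complexes and a dotted line at 600 bases. The points run down with length in 9-week males (rho -0.54) and up after castration (rho 0.34).

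The 13 mitochondrially encoded subunits did not rise in any cKO against control comparison. In females 4, 1 and 2 fell at 6, 9 and 12 weeks, where 19, 19.9 and 15.9% of all genes fell. In males 2, 7 and 0 fell at 4, 6 and 9 weeks, where 12.9, 11.9 and 13.6% of all genes fell. The falls at 9 and 12 weeks in females and at 4 weeks in males were thus near or below the share of all genes. At 9 weeks in males 2 had an unadjusted p under 0.05. mt-Nd1 and mt-Nd5, subunits of the membrane arm of complex I, fell by 0.66 (SE 0.14, adjusted p = 0.000956) and 0.69 (SE 0.15, adjusted p = 0.00153) at 6 weeks in males. In castrated against sham glands 0 were called and 0 had an unadjusted p under 0.05. Without sham replicate 1, 11 rose, with a median of 0.79, and the share of all genes that rose in that fit is not given. In poly(A)-selected RNA the share of these transcripts depends on their tails.

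The pathway lists that follow can be read against all genes tested. In females 14.1, 14.6 and 9.04% of all genes rose and 19, 19.9 and 15.9% fell at 6, 9 and 12 weeks. In males 6.16, 8.12 and 10.3% rose and 12.9, 11.9 and 13.6% fell at 4, 6 and 9 weeks, and after castration 19.7% rose and 23.8% fell.

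Of 17 enzymes of the tricarboxylic acid cycle and pyruvate dehydrogenase, 10, 8 and 7 rose at 6, 9 and 12 weeks in females. In males 3 rose and 0 fell at 4 weeks, 1 rose and 3 fell at 6 weeks and 0 rose and 8 fell at 9 weeks, and after castration 15 rose. Mdh2, the mitochondrial malate dehydrogenase, rose by 0.40 (SE 0.05, adjusted p = 1.73e-06) in females at 9 weeks and by 0.71 (SE 0.12, adjusted p = 0.000869) after castration. Suclg2, a succinyl-CoA ligase subunit, fell by 0.31 (SE 0.10, adjusted p = 0.0269) in 9-week males and rose by 0.94 (SE 0.10, adjusted p = 5.8e-05) after castration.

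Of 47 assembly factors 46 were tested. In females 13, 20 and 6 rose and 0, 1 and 0 fell at 6, 9 and 12 weeks. In males 2 rose and 0 fell at 4 weeks, 0 rose and 1 fell at 6 weeks and 6 rose and 7 fell at 9 weeks, and after castration 23 rose and 0 fell. The shares that rose were 28.3, 43.5 and 13% in females, 4.35, 0 and 13% in males and 50% after castration. Bcs1l, which inserts the Rieske protein into complex III, rose by 0.39 (SE 0.07, adjusted p = 9.43e-05) in females at 6 weeks. Cox18, which places a complex IV subunit in the membrane, rose by 1.33 (SE 0.16, adjusted p = 9.75e-05) after castration.

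Of 18 regulators of mitochondrial biogenesis, 4 rose and 2 fell at 6 weeks, 6 rose and 2 fell at 9 weeks and 4 rose and 2 fell at 12 weeks in females. In males 2 rose and 0 fell, 1 rose and 1 fell and 1 rose and 0 fell at 4, 6 and 9 weeks, and after castration 6 rose and 2 fell. The shares that rose were 22.2, 33.3 and 22.2% in females, 11.1, 5.56 and 5.56% in males and 33.3% after castration. Ppargc1a, a coactivator known to raise transcription of respiratory genes, fell by 2.25 (SE 0.32, adjusted p = 7.67e-06), 1.69 (SE 0.31, adjusted p = 0.000204) and 0.88 (SE 0.31, adjusted p = 0.0368) in cKO females at the 3 ages and by 1.17 (SE 0.26, adjusted p = 0.00389) after castration, where most called members rose. Tfam, which packages mitochondrial DNA and helps start its transcription, rose by 0.26 (SE 0.05, adjusted p = 0.000483) in females at 6 weeks and 0.48 (SE 0.11, adjusted p = 0.00587) after castration.

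Of 19 glycolysis genes 3 rose and 6 fell, 5 rose and 3 fell and 3 rose and 5 fell in females at 6, 9 and 12 weeks. In males 1 rose and 3 fell, 0 rose and 4 fell and 0 rose and 5 fell at 4, 6 and 9 weeks, and after castration 10 rose and 2 fell. The shares that rose were 15.8, 26.3 and 15.8% in females, 5.26, 0 and 0% in males and 52.6% after castration. Ldhb, a lactate dehydrogenase subunit, fell by 2.48 (SE 0.16, adjusted p = 1.33e-10) in females at 6 weeks and 2.08 (SE 0.19, adjusted p = 1.92e-05) after castration. Pdk1, which inhibits pyruvate dehydrogenase, rose by 1.13 (SE 0.09, adjusted p = 8.31e-06) after castration.

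Of 15 antioxidant and uncoupling genes 7 rose and 3 fell in females at 9 weeks, and after castration 7 rose and 3 fell of 14 tested. Ucp3, a mitochondrial carrier, fell by 2.77 (SE 0.38, adjusted p = 4.9e-06) and 1.96 (SE 0.38, adjusted p = 0.0022) in these comparisons. Of 8 genes of mitochondrial steroid synthesis 2 rose and 3 fell in females at 9 weeks, 0 rose and 2 fell in males at 9 weeks, and 3 rose and 1 fell after castration. Star, which carries cholesterol into mitochondria, fell by 0.83 (SE 0.20, adjusted p = 0.00228) in females at 9 weeks and 0.76 (SE 0.26, adjusted p = 0.0361) in males at 9 weeks, and rose by 0.90 (SE 0.19, adjusted p = 0.00311) after castration.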

How the data were processed

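Poly(A) RNA of whole adrenal glands was made into strand-marked libraries, according to the labels. The authors deposited raw gene counts in 3 tables (females, males, surgery). The submitters' processing notes name STAR 2.7.6a, cutadapt 1.16, RSEM 1.6.3, DESeq2 1.30.1, featureCounts and GRCm38 without roles. Strand setting, treatment of shared reads and annotation release were not stated. GENCODE M21 gave symbols, positions and lengths.

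Each table was fitted with all its groups in edgeR 4.0.16 (R 4.3.3, limma 3.58.1), with filterByExpr (minimum count 10), TMM factors, the robust quasi-likelihood test and Benjamini-Hochberg adjustment over the 18645, 17086 or 16961 genes tested. Standard errors are approximate and derive from the F statistic. Levels are TMM-normalised CPM. The fit was tested on simulated data. Mice are separate animals by the series' design text, and no libraries of a group agreed within sampling noise (smallest chi-square per gene 9.21). Sham animals share 1 replicate number in the labels and are numbered here only as names.

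Members and lists were chosen with earlier results of these data known. Named members are core subunits, tissue isoforms, c subunit genes, the 8 largest called rises and falls, the smallest p per complex and called members against the median, and up to 4 genes a list by smallest p. A member that this rule names is not reported here and is left out of the plot by member. Alternatives were DESeq2 1.42.0, RLE or library-total scaling, no filter, leaving out each library, groups compared only, replicate block, library number and reporter allele. Splits by library number were chosen after seeing the data. The fat, liver and muscle marker lists and the remaining comparisons of other lists served as checks. Of 5 general fat markers 1 rose in females at 9 weeks, and of 5 liver markers 5 rose in females at 12 weeks. The liver markers there summed to 0.3213, 358.3, 0.3245 and 13.1 CPM in cKO replicates 1 to 4. Controls had 0.2753 to 0.5604 CPM, so that rise rests mainly on cKO replicate 2.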

Additional observations from a re-analysis of the deposited data

Results flagged for a closer look

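For the members described in detail, the highest and lowest library of each group of 4 was examined. In 22 of 364 groups of values its gap to the nearest library, as a share of the group's range, was above Dixon's critical value at 95%, and chance gives about 1 in 20. Levels below are TMM-normalised CPM.

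In females at 6 weeks, cKO replicate 4 was highest for Ndufa5 (49.39, others 35.11 to 37.25), Uqcrc1 (342.2, others 300.8 to 304.5), Uqcrfs1 (194.2, others 167.2 to 171.6), Cox7a1 (16.09, others 9.156 to 9.489) and Atp5g2 (139.3, others 121.9 to 124.1). Control replicate 2 at 6 weeks was highest for Sdhb (258.4, others 245.1 to 247.3). At 9 weeks control replicate 3 was lowest for Ndufa5 (29.5, others 31.17 to 31.48) and Cox7a1 (4.608, others 5.743 to 5.916), control replicate 1 was highest for Atp5a1 (1137, others 1051 to 1064) and cKO replicate 3 was lowest for Cox8b (0.1875, others 0.5903 to 0.6512). At 12 weeks cKO replicate 2 was highest for Cox8b (1.552, others 0.1874 to 0.2782) and Cox4i2 (2.641, others 1.419 to 1.598).

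In males at 4 weeks control replicate 1 (322.1, others 239.3 to 252.5) and cKO replicate 2 (362.4, others 326.6 to 331.2) were highest for Sdhb, and cKO replicate 3 was highest for Atp5a1 (1352, others 1225 to 1243). At 9 weeks control replicate 1 was highest for Cox5a (72.55, others 63.5 to 64.49).

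In the surgery series sham replicate 1 was lowest for Sdhd (45.53, others 82.23 to 83.43), Atp5a1 (426.3, others 764.2 to 788) and Atp5b (422.6, others 922.1 to 967.6). It was highest for Cox4i2 (4.413, others 1.766 to 2.096), Cox6b2 (7.459, others 3.71 to 3.974) and Cox8b (4.92, others 1.358 to 1.501). It also had the highest mitochondrial share, 9.87% of counts.

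The genotype effect differed with age, by an interaction contrast in edgeR, for Sdhd (-0.53), Atp5a1 (-0.56) and Atp5b (-0.73) in males at 9 against 4 weeks. The share of members called there was below the 4.89% of all genes. The same contrast gave 5.05 for Cox6a2 in females at 12 against 6 weeks, a description only, because the 6-week controls in it are the one group through which Cox6a2 met the level for membership.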

How the results depend on the processing

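Numbers are members called by edgeR's quasi-likelihood test or the named alternative. The shares of all genes called in these fits are not given, so a changed count is not read as particular to the members. Leaving out 1 library gave 36 to 68 in females at 6 weeks, 70 to 78 at 9 weeks and 17 to 45 at 12 weeks, 12 to 63 in males at 4 weeks, 6 to 10 at 6 weeks and 39 to 57 at 9 weeks, and 37 to 71 for castration. It gave 0 to 0 for 12 against 6 weeks in control females, 3 to 6 in cKO females and 0 to 1 for their interaction, and 0 to 1, 24 to 44 and 0 to 8 for 9 against 4 weeks in males. With only the groups compared the count was 30 in 6-week females, 8 in 4-week and 15 in 6-week males, 1 for cKO females by age and 0 for both interactions. DESeq2 gave 31 in 4-week males, 1 for control females by age and 6 for the male interaction. The term for library number above 24 gave 3, 2, 1 (control males by age) and 0 (male interaction). Libraries numbered up to 24 gave 2 in 4-week males, 1 in 9-week males and 14 for cKO males by age, and Uqcrh in 4-week males turned from 0.30 to -0.03. At 4 weeks that split holds 1 control, whose spread is taken from the other groups, so little can be read from it. Library totals gave 17 for cKO females by age (1 higher, 16 lower, against 1 and 5) and 0 for their interaction. Without the low-count filter these were 3 for cKO females by age and 5 for the male interaction, and the median of all genes for castration moved to -0.11. With the replicate number as a block the female interaction had 0 members called. The block moved no other count of called members by over 1.5 times. Same-numbered libraries had correlations of -0.253 to 0.107, so the numbers were not taken as pairs. In the surgery series no paired analysis was possible because all sham animals carry the same replicate number in the labels. Of 1520 values of named called members with 1 library left out, 172 lost the call and 0 turned direction. Of 1253 under other alternatives 137 lost it and 1, Uqcrh, turned. Depth limits Cox6a2 most, with at most 14 counts in any cKO library of females.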
